A study of Mus musculus with 12 samples.

Results

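A set of 10 genes of the mouse jejunum is described here, namely Radx, Polh, Top1mt, Rpusd1, Mtss2, Dennd10, Grm5, Dusp9, Aspa and Prr15. They were chosen from these same arrays, because the difference between IIAEK and vehicle was unlike in the 2 genotypes or was large in wild type only. The values of that contrast, and of the IIAEK difference within each genotype, are therefore given as a description with no test. The 10 genes have 15 probes among 56605, and they are 10 of 46522 genes and unnamed probes on the array. All 10 passed the detection filter, through which 27555 genes were tested.

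The samples were jejunum of male mice, collected after 8 h of fasting, with 3 arrays in each of 4 groups. KO IIAEK were IAP-KO mice, which lack Akp3 (Akp3-/-), given IIAEK by mouth once a day at 600 mg/kg body weight, dissolved in carboxymethylcellulose sodium salt at 5 g/L. KO vehicle were IAP-KO (Akp3-/-) mice given that solution alone, WT IIAEK were wild-type mice given the peptide, and WT vehicle were wild-type mice given the solution alone. All mice were 7 weeks old and were treated for 14 days. A source field of the IIAEK samples writes 14 weeks where the titles and the protocol have 14 days. The labels name no strain background, and the knockout is not described as limited to a tissue. They do not say whether the 3 replicates were separate mice, so the p-values measure the spread between these arrays, which may be technical.

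IIAEK is a peptide of 2 isoleucines, alanine, glutamic acid and lysine, cut from the milk protein beta-lactoglobulin, and it lowers serum cholesterol when fed to rodents. IAP, intestinal alkaline phosphatase, is an enzyme of the enterocyte brush border that removes phosphate groups from lipids, nucleotides and bacterial lipopolysaccharide, and Akp3 encodes its duodenal form. The genes described here do not belong to 1 pathway. Radx and Polh act in DNA replication, Top1mt in mitochondrial DNA, Rpusd1 belongs to the enzymes that modify uridine in RNA, Mtss2 and Dennd10 act on membranes, Grm5 and Dusp9 act in signalling, and Aspa is an enzyme of amino acid metabolism.

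Levels are log2 processed signals after subtraction of each array's 75th percentile, so that 0 is that percentile, and levels of different probes are not compared. That percentile was an intensity of 411 to 578, and the share of spots well above background was 59.99% to 67.1%. Across genes, which are not independent replicates, r was 0.976 to 0.991 within groups and 0.965 to 0.993 between them. The targeted gene Akp3 was below background on all 6 knockout arrays, at -6.83 to -5.48. It was above background on 5 of 6 wild-type arrays, and the 6 spanned -5.94 to -1.11. On IIAEK it was at least 7.66-fold lower in the knockout. Over both treatments the measured wild-type mean was 3.13-fold above the detection limit of the knockout arrays. On vehicle, where 2 of 3 wild-type arrays were above background, it was 1.28-fold above. These last 2 values include the wild-type array not above background, so they are not strict bounds. The enterocyte markers Vil1, Fabp1, Fabp2, Sis and Cdx2 were well above background on all 12 arrays. Xist, expressed from the inactive X chromosome of females, was above background on 0 of 12 arrays and 4 genes of the Y chromosome on 12 of 12.

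The 10 genes fell into 2 sets by their direction in wild type. Of these, 6 genes, Radx, Prr15, Dennd10, Grm5, Dusp9 and Aspa, had lower levels on IIAEK than on vehicle in wild type, and 4 of those 6, the exceptions being Dusp9 and Aspa, had higher levels on IIAEK than on vehicle in the knockout, with no overlap of the arrays. Top1mt, Mtss2, Rpusd1 and Polh had higher levels on IIAEK in wild type and lower levels on IIAEK in the knockout. In the knockout the IIAEK and vehicle arrays did not overlap for 8 of the 10 genes, 4 higher and 4 lower, beside 8.17% of all genes tested (5.11% higher and 3.06% lower). In wild type they were apart for 10 of 10, 4 higher and 6 lower, beside 24.9% of all genes (10.7% and 14.3%). Opposite and non-overlapping directions in both genotypes were seen for 8 of 10, beside 486 genes or 1.76% of all. The 4 that were higher in KO IIAEK and lower in WT IIAEK stand beside 1.33% of all genes, and the 4 of the reverse pattern beside 0.435%. These counts restate how the genes were chosen. Over all genes, 0 of 27555 (0%) passed an adjusted p of 0.05 by limma for the difference between genotypes in the IIAEK change, whereas 4189 (15.2%) had an unadjusted p under 0.05. For IIAEK against vehicle 0 genes (0%) passed in the knockout and 0 (0%) in wild type, and 1277 (4.63%) and 3531 (12.8%) had an unadjusted p under 0.05 in the knockout and in wild type.

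**Figure D1:**
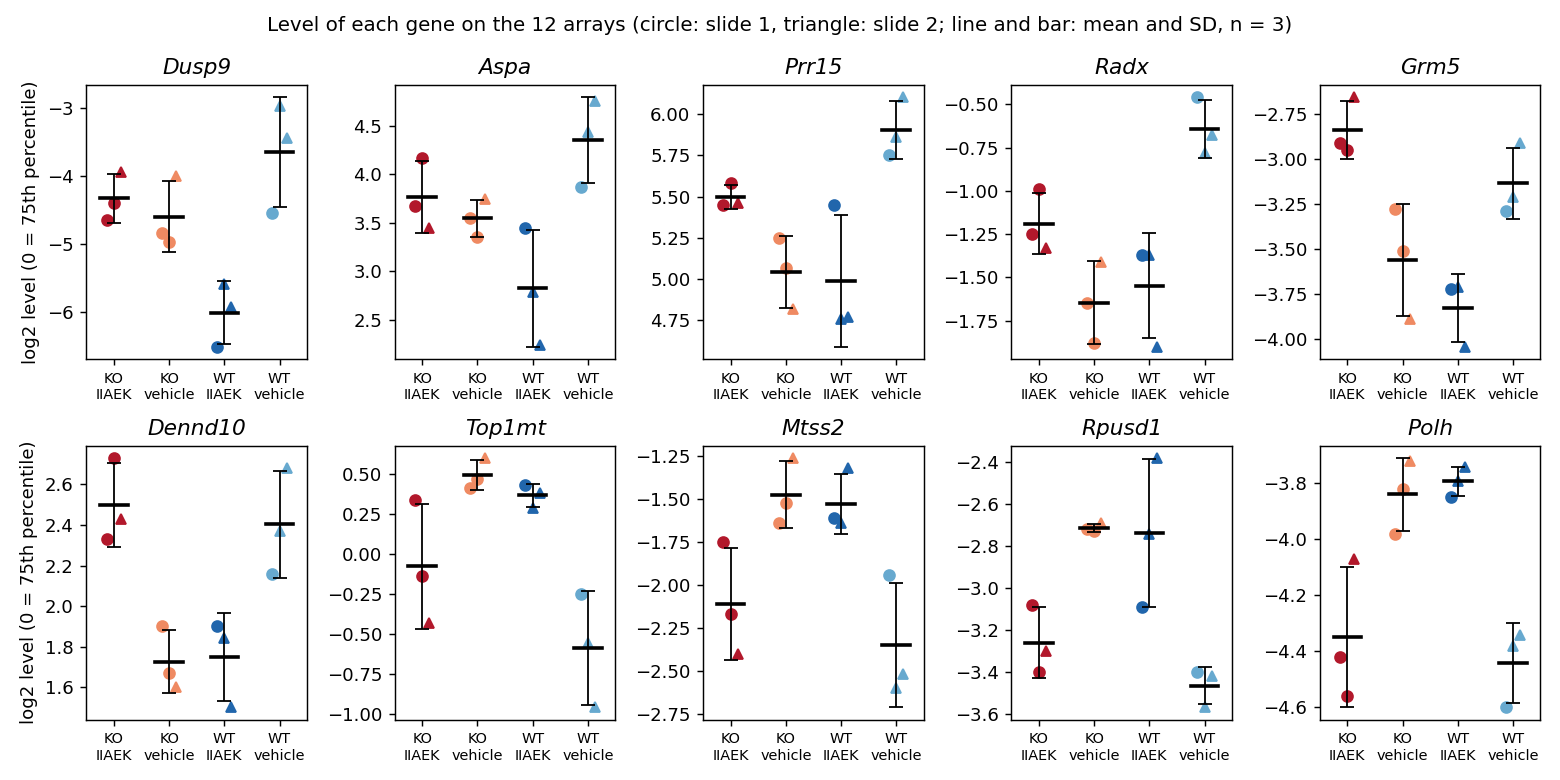
Log2 level of each gene (y axis, 0 is the 75th percentile of the array, scales differ) on the 3 arrays of each group (x axis), with circles for slide 1, triangles for slide 2 and the mean and SD as lines. In the 6 genes from Dusp9 to Dennd10 the WT IIAEK arrays lie below the WT vehicle arrays, and in Top1mt, Mtss2, Rpusd1 and Polh they lie above them.

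Because 8 genes differed in opposite directions in the genotypes, the sequences upstream of their starts are shown for 2 of each direction, together with Aspa, whose change was large in wild type only. RefSeq promoters (GRCm38.p6, 250 bases before to 50 after the start, read on the gene's strand) were found for 7 of the 10 genes, and Top1mt, Grm5 and Dusp9 are only named. Capitals mark matches on either strand to 4 motifs. These are CCAAT, which reads ATTGG on the other strand, then GGGCGG, which reads CCGCCC there, then TATAAA, which reads TTTATA there, and last CACGTG, the same on both strands. Where a TATAAA match overlapped 1 on the other strand, both were counted.
Radx (chrX:139480117-139480416, + strand): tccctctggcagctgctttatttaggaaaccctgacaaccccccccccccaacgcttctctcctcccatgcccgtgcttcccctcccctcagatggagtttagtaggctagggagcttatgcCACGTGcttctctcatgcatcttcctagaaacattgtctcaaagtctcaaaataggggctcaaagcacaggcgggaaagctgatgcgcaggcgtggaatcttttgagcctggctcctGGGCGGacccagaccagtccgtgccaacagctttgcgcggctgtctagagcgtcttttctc
Prr15 (chr6:54326651-54326950, + strand): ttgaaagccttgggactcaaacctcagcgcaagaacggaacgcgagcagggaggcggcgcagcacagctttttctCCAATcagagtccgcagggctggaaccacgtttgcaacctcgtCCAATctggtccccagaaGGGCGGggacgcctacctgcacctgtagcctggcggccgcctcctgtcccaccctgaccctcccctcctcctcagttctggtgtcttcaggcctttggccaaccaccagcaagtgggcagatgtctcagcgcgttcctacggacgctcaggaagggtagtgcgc
Rpusd1 (chr17:25727467-25727766, + strand): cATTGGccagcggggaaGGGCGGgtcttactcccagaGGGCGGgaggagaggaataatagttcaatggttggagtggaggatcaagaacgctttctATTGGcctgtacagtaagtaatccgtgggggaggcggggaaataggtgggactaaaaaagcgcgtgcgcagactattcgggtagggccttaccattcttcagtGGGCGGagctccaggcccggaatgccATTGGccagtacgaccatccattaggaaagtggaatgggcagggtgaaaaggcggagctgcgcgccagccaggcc
Polh (chr17:46202592-46202891, - strand): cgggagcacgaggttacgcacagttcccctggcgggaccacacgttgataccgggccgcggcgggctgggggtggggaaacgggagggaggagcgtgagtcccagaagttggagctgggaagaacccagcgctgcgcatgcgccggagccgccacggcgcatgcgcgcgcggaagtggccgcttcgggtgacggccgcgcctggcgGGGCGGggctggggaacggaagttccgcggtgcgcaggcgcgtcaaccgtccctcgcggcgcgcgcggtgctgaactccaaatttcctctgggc
Aspa (chr11:73324588-73324887, - strand): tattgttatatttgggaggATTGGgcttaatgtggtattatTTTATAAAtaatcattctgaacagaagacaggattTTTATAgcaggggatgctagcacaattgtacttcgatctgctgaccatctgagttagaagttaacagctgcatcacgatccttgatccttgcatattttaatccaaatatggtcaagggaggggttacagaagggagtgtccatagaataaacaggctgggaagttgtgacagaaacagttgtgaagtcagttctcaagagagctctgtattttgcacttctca

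Radx and Prr15, with the same directions, held GGGCGG 1 time each, and Prr15 also held CCAAT 2 times where Radx had none. Rpusd1 and Polh, with the reverse directions, held GGGCGG 3 times and 1 time, and Rpusd1 held CCAAT 3 times. The Aspa window held TATAAA 3 times and no GGGCGG. Counting the 2 promoters listed for Mtss2, GGGCGG was found in 6 of 8 promoters of these genes, in 35.7% of 32851 RefSeq promoters and in 55.7% of the 15792 promoters of genes tested. CCAAT was in 5 of 8, in 37.4% of all and in 37.6% of those of genes tested. CACGTG was in 2 of 8, in 7.15% and in 9.28%, and TATAAA in 1 of 8, in 13.6% and in 9.07%, in the same order. TTTATGG, letters of the kind bound by CDX2, was in 0 of 8, in 2.75% of all and in 1.98% of those of genes tested. CAAAGTCCA, of the kind bound by HNF4, was in 0 of 8, in 0.475% and in 0.538%. The content of G and C was 56% in Radx, 62% in Prr15, 57.3% in Rpusd1, 72% in Polh and 39% in Aspa. Its median was 52.7% over all promoters and 59.3% over genes tested, for which the promoters of a gene were averaged. GGGCGG was in a promoter of each of the 6 genes of opposite changes that had one, in both directions, and not in that of Aspa, and a match in these windows is a description of letters.

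Radx encodes a protein that binds single-stranded DNA at stalled replication forks. Its level was -1.25, -0.99 and -1.33 on the KO IIAEK arrays and -1.65, -1.88 and -1.41 on the KO vehicle arrays. In wild type it was -1.37, -1.37 and -1.90 on IIAEK and -0.46, -0.78 and -0.68 on vehicle. WT vehicle stood highest with no overlap, KO IIAEK came next, also apart, and WT IIAEK and KO vehicle overlapped at the bottom. The change on IIAEK was 0.46 (SE 0.19) in the knockout, 1.37-fold higher, and -0.91 (SE 0.19) in wild type, 1.87-fold lower, a difference between genotypes, called the interaction (knockout minus wild type) from here on, of 1.36 (SE 0.27). The second Radx probe was below background on all 12 arrays, at -7.59 to -5.45.

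Polh encodes DNA polymerase eta, which copies past ultraviolet damage, and it ran the opposite way to Radx. The KO IIAEK arrays read -4.42, -4.56 and -4.07 and the KO vehicle arrays -3.98, -3.82 and -3.72. WT IIAEK arrays were at -3.85, -3.79 and -3.74 and WT vehicle arrays at -4.60, -4.38 and -4.34. The KO vehicle and WT IIAEK arrays formed a common upper range and the KO IIAEK and WT vehicle arrays a common lower one, close to the detection limit, with 11 of 12 arrays above background. The change was -0.51 (SE 0.15) in the knockout and 0.65 (SE 0.15) in wild type, 1.42-fold lower and 1.57-fold higher, and the interaction was -1.16 (SE 0.21), or -0.27 with normexp background correction. Its second probe was below background on 12 of 12 arrays.

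The other genes of translesion synthesis and fork protection, 16 of them tested, did not pass limma's adjusted p in any of the 4 contrasts. In the interaction 8 lay above 0 and 8 below, with a median of -0.02 beside 0.07 over all genes, and 1 was higher and 2 lower at an unadjusted p under 0.05, beside 15.2% of all genes. Hltf, a fork remodeller, had an interaction of 0.70 (SE 0.30, limma adjusted p = 0.316), Poli, a further translesion polymerase, -0.59 (SE 0.25, limma adjusted p = 0.318), and Zranb3, also a fork remodeller, -0.43 (SE 0.19, limma adjusted p = 0.319).

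Top1mt encodes the topoisomerase that relaxes mitochondrial DNA. It read 0.34, -0.14 and -0.43 on the KO IIAEK arrays and 0.41, 0.47 and 0.60 on the KO vehicle arrays. In WT IIAEK it read 0.43, 0.29 and 0.38, against -0.25, -0.56 and -0.96 in WT vehicle. The groups ran KO vehicle, WT IIAEK, KO IIAEK and WT vehicle from high to low, and each overlapped its neighbour in that order. KO IIAEK replicate 1 reached the WT IIAEK arrays, while replicate 3 lay below the highest WT vehicle array. On IIAEK the level changed by -0.57 (SE 0.21) in the knockout and by 0.96 (SE 0.21) in wild type, 1.48-fold lower and 1.94-fold higher, and the interaction was -1.53 (SE 0.30). Of 13 other topoisomerases and genes of mitochondrial DNA upkeep, 0 passed the adjusted p. In the interaction 6 lay above 0 and 7 below, with a median of -0.20. At an unadjusted p under 0.05, 0 were higher and 2 lower, beside 15.2% of all genes in either direction. Named for the smallest p in the list, the mitochondrial RNA polymerase Polrmt had an interaction of -0.87 (SE 0.32, limma adjusted p = 0.304) and the mitochondrial helicase Twnk -0.94 (SE 0.39, limma adjusted p = 0.314). Top2b, a nuclear topoisomerase, had an interaction of 0.31 (SE 0.18, limma adjusted p = 0.405).

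Rpusd1 carries the domain of RNA pseudouridine synthases, enzymes that turn uridine into pseudouridine. Its arrays read -3.08, -3.40 and -3.30 in KO IIAEK and -2.72, -2.73 and -2.69 in KO vehicle. For WT IIAEK the readings were -3.09, -2.74 and -2.38, and for WT vehicle -3.40, -3.57 and -3.42. The 3 KO vehicle arrays were nearly identical and lay inside the wide range of WT IIAEK, while KO IIAEK and WT vehicle met at -3.40. The change was -0.55 (SE 0.17) in the knockout, 1.46-fold lower, and 0.73 (SE 0.17) in wild type, 1.66-fold higher, with an interaction of -1.27 (SE 0.25), or -0.59 with normexp. Among 10 other pseudouridine synthases tested, 0 passed the adjusted p. In the interaction 2 were higher and 2 lower at an unadjusted p under 0.05, beside 15.2% of all genes. The tRNA enzymes Pus3 and Pus10 had an interaction of 0.64 (SE 0.20) and 0.61 (SE 0.22), each with a limma adjusted p of 0.304, and the mitochondrial Rpusd4 had an interaction of -0.54 (SE 0.21, limma adjusted p = 0.305), so members of this enzyme family lay on both sides of 0.

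Mtss2 encodes an I-BAR protein, which bends the plasma membrane outward and binds actin. The KO IIAEK arrays read -1.75, -2.17 and -2.40, against -1.64, -1.52 and -1.26 in KO vehicle. The WT IIAEK arrays read -1.61, -1.64 and -1.32, against -1.94, -2.60 and -2.52 in WT vehicle. KO vehicle and WT IIAEK shared the upper range, KO IIAEK and WT vehicle shared the lower one, and no array of the upper pair reached the lower pair. Its change was -0.64 (SE 0.22) in the knockout and 0.82 (SE 0.22) in wild type, 1.55-fold lower and 1.77-fold higher, and the interaction was -1.46 (SE 0.31). The second Mtss2 probe was above background on 1 of 12 arrays, a KO IIAEK array. Of the 4 other I-BAR genes 0 passed the adjusted p in any contrast, and all 4 lay below 0 in the interaction with a median of -0.15. Mtss1, the closest relative, had an interaction of -0.11 (SE 0.20, limma adjusted p = 0.801), Baiap2 -0.19 (SE 0.26, limma adjusted p = 0.728) and Baiap2l1 -0.34 (SE 0.46, limma adjusted p = 0.731).

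Dennd10 encodes a protein with a DENN domain, the module that many activators of Rab GTPases carry, and is placed at late endosomes. Levels of 2.33, 2.73 and 2.43 in KO IIAEK stood against 1.90, 1.67 and 1.60 in KO vehicle. In wild type the levels were 1.90, 1.84 and 1.5 on IIAEK and 2.16, 2.37 and 2.68 on vehicle. KO IIAEK and WT vehicle overlapped in the upper range and WT IIAEK and KO vehicle in the lower, with a gap between them. The change on IIAEK was 0.77 (SE 0.18) in the knockout, 1.71-fold higher and the largest of the 10 in that genotype, and -0.66 (SE 0.18) in wild type, 1.58-fold lower. The interaction was 1.43 (SE 0.26). Of 16 other genes of DENN domains and late endosomes tested, 0 passed the adjusted p, and 8 lay above 0 and 8 below in the interaction. Dennd1c had an interaction of -0.86 (SE 0.33, limma adjusted p = 0.304), Dennd4b -0.61 (SE 0.25, limma adjusted p = 0.311) and Dennd5b 0.57 (SE 0.25, limma adjusted p = 0.320), so Dennd1c and Dennd4b lay opposite to Dennd10.

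Grm5 encodes the metabotropic glutamate receptor 5, which signals through Gq proteins and is best known from neurons. The only Grm5 probe above background, on all 12 arrays, is 1 annotated to a predicted transcript. It read -2.91, -2.95 and -2.66 in KO IIAEK and -3.28, -3.51 and -3.89 in KO vehicle. It read -3.72, -3.71 and -4.04 in WT IIAEK and -3.29, -3.21 and -2.91 in WT vehicle. In order of the means, KO IIAEK, WT vehicle, KO vehicle and WT IIAEK each overlapped the next. The change of this probe was 0.72 (SE 0.18) in the knockout and -0.69 (SE 0.18) in wild type, 1.65-fold higher and 1.61-fold lower, and the interaction was 1.41 (SE 0.26), or 0.67 with normexp. Both probes annotated to the curated transcripts of Grm5 were below background on 12 of 12 arrays, at -7.28 to -6.45 and -7.53 to -6.54, so the change was seen in 1 of 3 probes and transcript of the curated forms was not detectable on these arrays. Of 12 other genes of metabotropic receptors and their partners 6 were tested and 0 passed. All 6 lay above 0 in the interaction with a median of 0.20, and 0 of them had an unadjusted p under 0.05. The scaffold genes Homer1 and Homer2, whose proteins tether this receptor, had an interaction of 0.46 (SE 0.23, limma adjusted p = 0.351) and 0.22 (SE 0.24, limma adjusted p = 0.672), and Gnaq, which encodes the G protein itself, had an interaction of 0.27 (SE 0.23, limma adjusted p = 0.569).

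Dusp9 encodes a phosphatase that switches off the MAP kinase ERK, and it was above background on 8 of 12 arrays, the fewest of the 10 genes. It was above background on 3 of 3 KO IIAEK arrays, at -4.65, -4.39 and -3.95, and on 2 of 3 KO vehicle arrays, which read -4.83, -4.97 and -4.00. In WT IIAEK it was above background on 0 of 3 arrays, at -6.50, -5.59 and -5.92, and in WT vehicle on 3 of 3, at -4.54, -2.98 and -3.44. WT IIAEK thus lay below every other array, and the other 3 groups overlapped. Against WT vehicle it was at least 3.13-fold lower in WT IIAEK (measured change -2.35), a bound on the scale used here, set by the detection limit of the WT IIAEK arrays. With normexp the measured change in wild type was -0.59, smaller than that bound. In the knockout the measured change was 0.27, within the spread of the arrays. The measured interaction of 2.62, or 0.58 with normexp, rests on signals not above background on 4 arrays and gives no size of the difference. On the peptide, KO IIAEK was at least 1.96-fold above WT IIAEK on the scale used here, by the same detection limit. With normexp the measured genotype difference over both treatments was 0.08. Together with the interaction of 0.58 it places KO IIAEK above WT IIAEK by less than that bound. Of 9 other MAP kinase phosphatases 0 passed the adjusted p, and 2 lay above 0 and 7 below in the interaction, with a median of -0.15. Dusp7, whose product also acts on ERK, had an interaction of -0.80 (SE 0.27, limma adjusted p = 0.304), Dusp2 -1.40 (SE 0.64, limma adjusted p = 0.331) and Dusp10, of the JNK and p38 group, -0.45 (SE 0.29, limma adjusted p = 0.447), all opposite in sign to Dusp9.

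Aspa encodes aspartoacylase, which splits N-acetylaspartate into aspartate and acetate. The KO IIAEK arrays read 3.67, 4.17 and 3.45 and the KO vehicle arrays 3.55, 3.35 and 3.74. The WT IIAEK arrays read 3.45, 2.79 and 2.24 and the WT vehicle arrays 3.87, 4.43 and 4.75. The means of both knockout groups lay between those of the wild-type groups, and the knockout groups overlapped each other, KO IIAEK reached into the range of WT vehicle, and WT IIAEK reached into that of KO vehicle. Its change was 0.22 (SE 0.31) in the knockout and -1.52 (SE 0.31) in wild type, 2.88-fold lower, and the interaction was 1.74 (SE 0.44). Of 9 other genes of N-acetylaspartate and acylase metabolism 6 were tested and 0 passed, 2 above 0 and 4 below in the interaction. Nat8l, which makes N-acetylaspartate, had an interaction of -0.96 (SE 0.40, limma adjusted p = 0.312) and was close to background, the aminoacylase Acy1 had an interaction of 0.49 (SE 0.30, limma adjusted p = 0.418), and Acss2, which activates acetate, had an interaction of -0.24 (SE 0.33, limma adjusted p = 0.727).

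Prr15, proline rich 15, read 5.45, 5.58 and 5.46 in KO IIAEK and 5.25, 5.07 and 4.82 in KO vehicle. It read 5.45, 4.76 and 4.77 in WT IIAEK and 5.75, 5.86 and 6.10 in WT vehicle. WT vehicle was highest and KO IIAEK next, without overlap, and KO vehicle overlapped WT IIAEK, in which replicate 1 stood above replicates 2 and 3 at the level of KO IIAEK. The change on IIAEK was 0.45 (SE 0.20) in the knockout, 1.37-fold higher, and -0.91 (SE 0.20) in wild type, 1.88-fold lower, with an interaction of 1.36 (SE 0.28). Prr15l, the other gene of the pair, had an interaction of -0.61 (SE 0.30, limma adjusted p = 0.346), opposite in sign to Prr15.

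Over the 9 related lists, 81 of 92 genes other than the 10 were tested, and 0 passed the adjusted p by limma in the 4 contrasts. In the interaction 4 were higher and 10 lower at an unadjusted p under 0.05, which is 17.3% beside 15.2% of all genes, and the median was -0.10 beside 0.07. On IIAEK 5 had such a p in the knockout (6.17% beside 4.63% of all genes) and 8 in wild type (9.88% beside 12.8%).

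**Figure D2:**
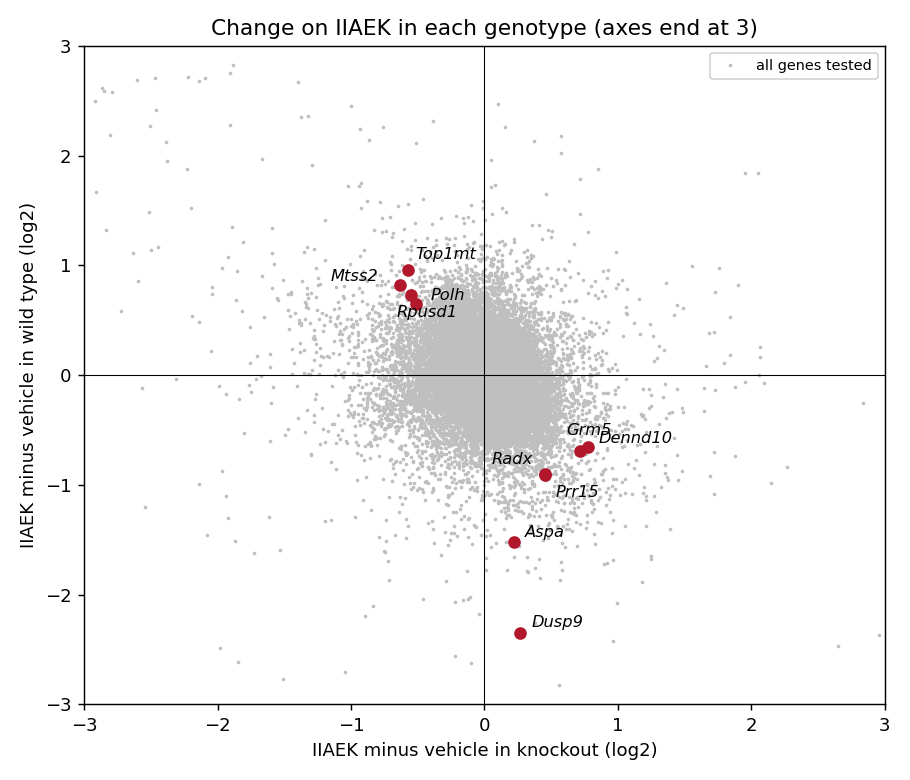
Change on IIAEK (log2, IIAEK minus vehicle) in the knockout (x axis) and in wild type (y axis) for the 10 genes (red, Radx and Prr15 coincide) and all genes tested (grey, axes end at 3). The 10 genes were chosen for this pattern, and 8 of them lie away from 0 on both axes in opposite directions, while Aspa and Dusp9 lie near 0 in the knockout at 0.22 and 0.27.

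The same arrays also show the genotypes side by side on each treatment. These comparisons share arrays with the IIAEK changes above and with the choice of the genes. On IIAEK the knockout arrays did not overlap the wild-type arrays for 7 of 10 genes, 5 higher and 2 lower. The share of all genes was 9.95% (6.51% higher and 3.44% lower). The sizes on IIAEK lay between 0.36 and 1.67 with a median of 0.57. The largest is the measured value of Dusp9, which was not above background in WT IIAEK, so it gives no size. On vehicle the knockout and wild-type arrays did not overlap for 8 of 10, 4 higher and 4 lower, beside 23.5% of all genes (10.2% and 13.3%). The sizes on vehicle lay between 0.42 and 1.08 with a median of 0.83, and Grm5 at -0.42 and Dusp9 at -0.95 overlapped. In all 10 genes the sign of knockout minus wild type on vehicle was the opposite of that on IIAEK. On vehicle, knockout minus wild type was -1.0 for Radx, -0.86 for Prr15, -0.68 for Dennd10 and -0.81 for Aspa. It was 1.08 for Top1mt, 0.88 for Mtss2, 0.75 for Rpusd1 and 0.60 for Polh. KO vehicle thus lay on the side of WT IIAEK for these 8 genes. Among all genes, 430 of the 486 with opposite non-overlapping changes (1.56% of those tested) also had KO vehicle arrays apart from WT vehicle on the side of WT IIAEK.

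**Figure D3:**
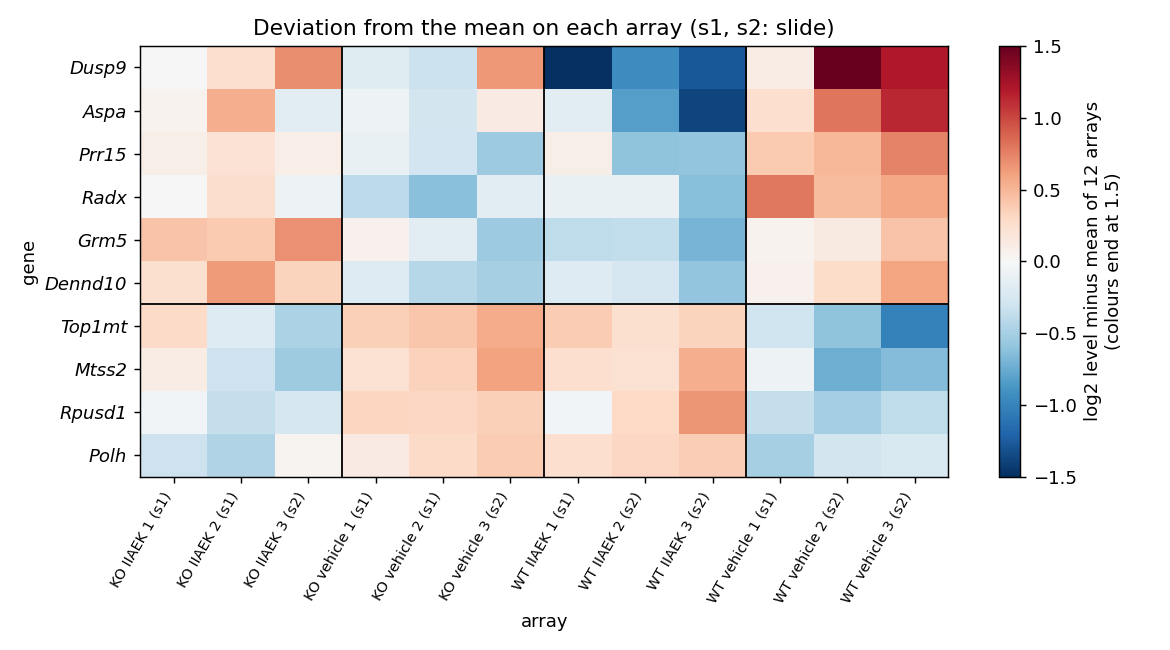
Level of each gene (rows) on each array (columns, s1 and s2 for the slide) minus its mean over the 12 arrays, in log2 units, with colours ending at 1.5. The upper 6 genes are low in WT IIAEK and high in WT vehicle and the lower 4 genes the reverse, except on WT IIAEK replicate 1. On that array Prr15 lies slightly above its mean and Rpusd1 slightly below its own. WT IIAEK replicate 1 and WT vehicle replicate 1 are paler than the other wild-type arrays for Aspa and Prr15.

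Over the 12 arrays, the 21 pairs of genes with the same direction in wild type had Pearson r of 0.51 to 0.94, and the 24 pairs with opposite directions -0.91 to -0.54. The highest was that of Top1mt with Mtss2 (r = 0.94) and the lowest that of Prr15 with Rpusd1 (r = -0.91). These are descriptions, since the genes were chosen for 1 pattern over these arrays. For each gene the 3 named genes with the highest r over the 12 arrays were looked up. They were Arl4a, Vps54 and Pum2 for Radx (r of 0.95, 0.94 and 0.93), and Slc7a3, Kcnj12 and Ago1 for Polh (0.87, 0.86 and 0.86). Eml3, Tamm41 and Mtss2 came first for Top1mt (0.94 each), and Ttc28, Top1mt and Eml3 for Mtss2 (0.94, 0.94 and 0.93). Pitpnm2, Atp13a2 and Rasa3 were nearest to Rpusd1 (0.96, 0.94 and 0.93), and Taok1, Papln and Nfyb to Dennd10 (0.95, 0.94 and 0.93). Grm5 was followed by 2310067E19Rik, Ggct and Eif4a1 (0.91, 0.90 and 0.90), and Dusp9 by Arl14, Nr1d2 and Stfa2 (0.90, 0.89 and 0.89). For Aspa they were Styxl1, D630024D03Rik and Rdh9 (0.97, 0.96 and 0.95), and for Prr15 Gnai3, Socs4 and Cops5 (0.96, 0.95 and 0.95). Apart from Top1mt and Mtss2, which were among each other's 3, the nearest genes were not among the 10. Several of them had smaller interactions than the gene they resembled, such as Pum2 at 0.45 beside Radx at 1.36 and Eml3 at -0.58 beside Mtss2 at -1.46, whereas Styxl1, at 1.95 beside Aspa at 1.74, and Papln, at 1.46 beside Dennd10 at 1.43, were as large.

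The genotype difference averaged over both treatments was not used in the choice. With equal groups its estimate is orthogonal to the contrasts that were, but its p-values and intervals use the same residual spread, and the slides held unequal numbers of each genotype. It asks whether these genes are higher or lower in the absence of Akp3 whatever the treatment. None of the 10 genes passed in it (0 of 10 at limma's adjusted p of 0.05, beside 1 of 27555 or 0.00363% of all genes), and 1 of 10 had an unadjusted p under 0.05, beside 5.51% of all. Knockout minus wild type lay between -0.32 and 0.36 with a median of 0.09, beside 0.00 over all genes, 8 genes above 0 and 2 below. Radx averaged -1.42 in the knockout and -1.10 in wild type, a difference of -0.32 (95% interval -0.62 to -0.03, limma adjusted p = 0.875). Top1mt averaged 0.21 in the knockout and -0.11 in wild type, a difference of 0.32 (-0.01 to 0.65, limma adjusted p = 0.909). For Grm5 the means were -3.20 in the knockout and -3.48 in wild type, a difference of 0.28 (-0.01 to 0.57, limma adjusted p = 0.909). The 6 knockout and 6 wild-type arrays were free of overlap for 0 of the 10 genes, beside 0.367% of all genes. The intervals of Polh (-0.21 to 0.26), Dennd10 (-0.24 to 0.32) and Rpusd1 (-0.15 to 0.38) were the narrowest. The measured difference of Dusp9, 0.36, includes 3 wild-type arrays not above background, so its interval sets no limit on the difference. The limma adjusted p of the other 7 genes lay between 0.971 and 0.999. Glrp1 was the 1 gene called in this contrast, at -2.29 (limma adjusted p = 0.00977), and it is named after its value was seen.

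**Figure D4:**
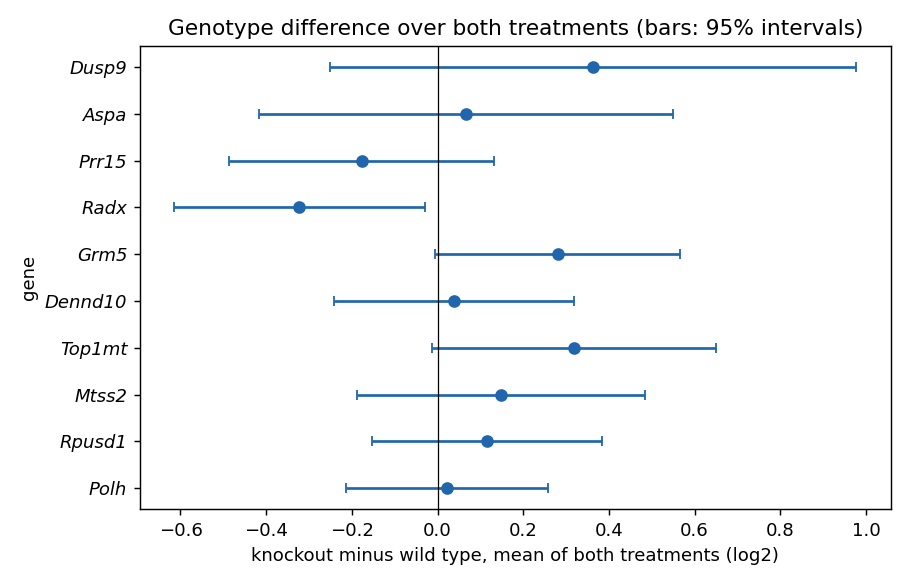
Knockout minus wild type averaged over both treatments (x axis, log2) for each gene, with limma's 95% interval as bars. The interval of Radx, at -0.32, ends just below 0, and the intervals of the other 9 genes include 0, that of Dusp9 resting in part on arrays not above background.

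The arrays lay on 2 slides, which were also 2 scans. Slide 1 held 2 arrays of each knockout group and 1 of each wild-type group, and slide 2 held 1 and 2. Each comparison was therefore also read within the slides. In the knockout, 9 of 10 genes had the same sign in both, and Aspa had 0.48 in slide 1 (2 arrays against 2) and -0.29 in slide 2 (1 against 1). For the 8 genes whose knockout IIAEK and vehicle arrays did not overlap, the sign was fixed in advance. In wild type all 10 had the same sign in both slides, of which slide 1 is 1 array against 1. That sign was fixed in advance, since the wild-type IIAEK and vehicle arrays of all 10 genes did not overlap. In wild type the change was larger in slide 2 for 8 genes and in slide 1 for Radx and Polh. Aspa had -0.43 in slide 1 and -2.07 in slide 2, and Prr15 -0.30 and -1.22. The interaction kept its sign in both slides for all 10 genes, at 0.66 and 1.86 for Prr15, 0.90 and 1.78 for Aspa, -0.71 and -2.22 for Mtss2, and 1.56 and 0.98 for Radx, slide 1 first. For the 8 genes with opposite, non-overlapping changes this could not have been otherwise. What the slides contributed to these sizes was not tested.

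**Figure D5:**
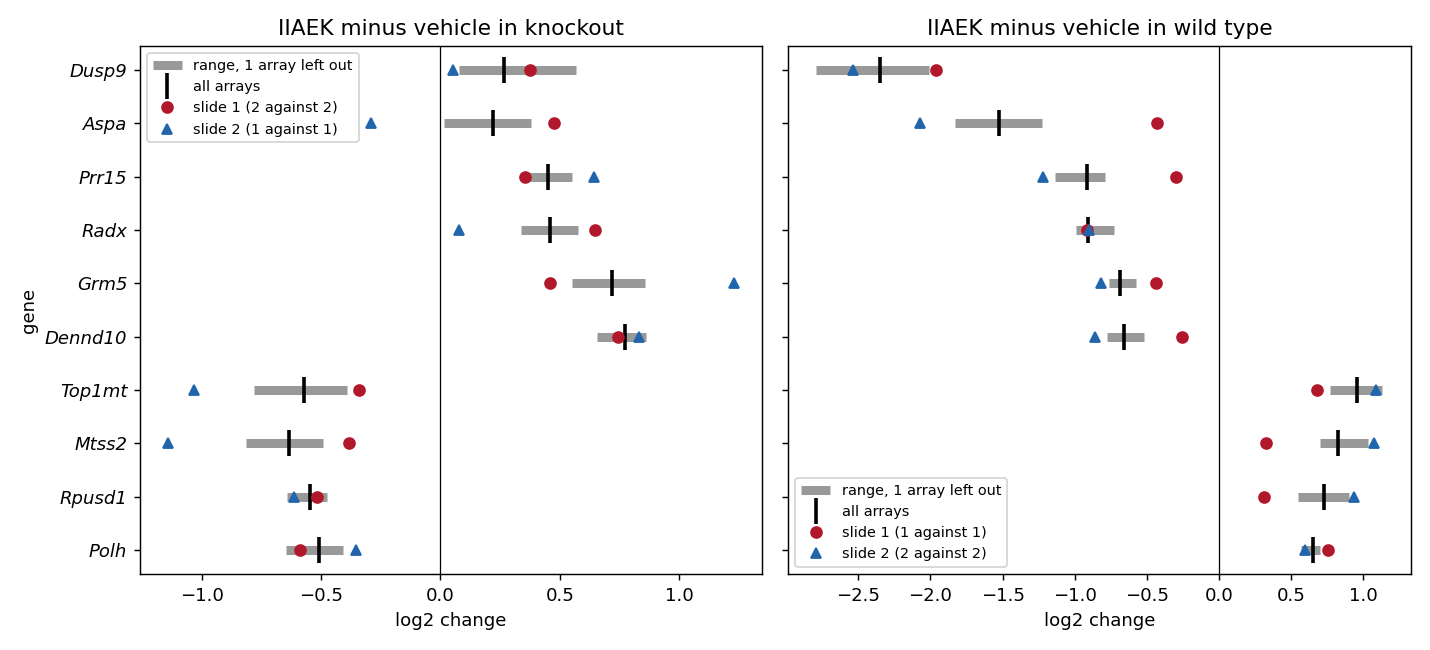
Change on IIAEK (x axis, log2) in the knockout (left) and in wild type (right) over all arrays (short line), within slide 1 (circle), within slide 2 (triangle) and as the range when 1 array is left out (grey bar). For each gene both slide values lie on the same side of 0, except for Aspa in the knockout, at 0.48 in slide 1 and -0.29 in slide 2. Where the IIAEK and vehicle arrays of a genotype do not overlap, the side was fixed in advance.

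Markers of other cell types also differed over the same arrays, and in whole tissue fewer cells of a type and less RNA per cell cannot be told apart. Markers of the exocrine pancreas, a neighbouring organ, were highest on WT IIAEK replicate 3 and KO vehicle replicate 3. Their summed level, in multiples of the 75th percentile signal, was 48.0 to 50.4 in KO IIAEK, 37.8 to 215.8 in KO vehicle, 46.1 to 3492 in WT IIAEK and 38.6 to 69.2 in WT vehicle, and the change on IIAEK was below 0 for 11 of 12 markers in the knockout and above 0 for 12 of 12 in wild type. Without those 2 arrays, an alternative chosen after seeing the data, the interaction kept its sign for all 10 genes, at 1.31 for Radx, 1.14 for Prr15, -1.47 for Top1mt, -1.25 for Mtss2, -1.09 for Rpusd1 and -1.08 for Polh. It was 1.24 for Dennd10, 1.13 for Grm5, 2.96 for Dusp9 and 1.55 for Aspa. The value of Dusp9 rests in part on arrays not above background and gives no size. For the 8 genes with opposite, non-overlapping changes, leaving arrays out could not change the sign, so its keeping says nothing about the pancreatic transcripts.

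Smooth muscle markers had a summed level of 102.2 to 145.6 in KO IIAEK, 99.6 to 138.4 in KO vehicle, 114.8 to 191.3 in WT IIAEK and 66.5 to 107.4 in WT vehicle, with 10 of 10 above 0 on IIAEK in wild type (median 0.90) and 5 of 10 in the knockout (median 0.00). Fibroblast markers were above 0 in 5 of 8 in the knockout and in 7 of 8 in wild type (medians 0.08 and 0.66). Markers of B and plasma cells lay at 180.4 to 346.2 in total in KO IIAEK, 188.1 to 309.5 in KO vehicle, 190.5 to 303.2 in WT IIAEK and 267.5 to 334.4 in WT vehicle. Of these 10 markers 8 were below 0 on IIAEK in the knockout (median -2.12) and 8 above 0 in wild type (median 0.97), the directions of Top1mt, Mtss2, Rpusd1 and Polh. Their mean log2 level on the arrays was apart between treatments in the knockout but overlapped in wild type. There it was -1.47, 0.96 and 0.25 on IIAEK and -1.81, -2.06 and 0.60 on vehicle. Paneth cell markers had totals of 1838 to 2818 in KO IIAEK, 1665 to 1829 in KO vehicle, 1637 to 1835 in WT IIAEK and 1872 to 2119 in WT vehicle, with 6 of 7 above 0 on IIAEK in the knockout and 0 of 7 in wild type, the directions of Radx, Prr15, Dennd10 and Grm5. Enterocyte markers, 10 of 10 detected on every array, had totals of 3002 to 3182 in KO IIAEK, 2927 to 3290 in KO vehicle, 2461 to 2991 in WT IIAEK and 3168 to 3345 in WT vehicle. Of these 10 markers 7 were above 0 on IIAEK in the knockout (median 0.10) and 9 below 0 in wild type (median -0.25). These were also the directions of Radx, Prr15, Dennd10 and Grm5. In wild type the mean log2 levels of Paneth cell and enterocyte markers overlapped between treatments, as did those of enterocyte markers in the knockout. Of 7 adipose markers tested 1 was above 0 on IIAEK in the knockout (median -0.88) and 4 in wild type (median 1.585). For 4 tuft cell markers the counts were 1 and 3 (medians -0.51 and 0.31), and for 10 of enteric neurons and glia 4 and 9 (-0.05 and 0.31). For 7 goblet cell markers they were 5 and 2 (0.08 and -0.05), and for 8 enteroendocrine markers 2 and 3 (-0.23 and -0.18). Over all genes 53.8% were above 0 on IIAEK in the knockout (median 0.02) and 43.8% in wild type (median -0.06). No marker of these lists passed limma's adjusted p in any contrast. On IIAEK in the knockout the unadjusted p was under 0.05 for 7 B and plasma cell, 5 Paneth cell, 1 neuron and glia and 1 goblet cell markers, beside 4.63% of all genes. In wild type it was so for 7 smooth muscle, 3 fibroblast, 2 enterocyte and 1 B and plasma cell markers. It was also so there for 2 enteroendocrine, 1 neuron and glia and 1 goblet cell markers, beside 12.8% of all genes. Their part in the values of the 10 genes was not tested.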

How the data were processed

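Gene expression was measured on 12 Agilent 8x60K mouse arrays of 1 colour (Cy3), 3 per group. Per the file headers, Feature Extraction 10.7.3.1 gave each spot a processed signal, an intensity corrected for background and not scaled between arrays. The series' deposited table is in log2 units. It followed the log2 signal scaled to the 75th percentile and centred per probe (r of at least 0.99999 on each array, column medians -0.08 to 0.15), as found from the values.

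Spots that the software flagged as non-uniform outliers were dropped (0 to 4 per array), none was saturated, and repeated spots were averaged. From the log2 signal of each array its 75th percentile over 56605 non-control probes was then subtracted. RefSeq accessions named 32994 probes, and 23611 kept their own names. The brightest probe stood for a gene. Genes well above background on 3 of 3 arrays of at least 1 group were tested, and 10 genes with a dropped spot were left out. The 4 group means were fitted together with limma 3.58.1 in R 4.3.3 (8 residual and 3.41 prior degrees of freedom), two-sided, adjusted by Benjamini-Hochberg over all genes within a contrast. Bounds written as "at least" set the measured mean of the brighter group against the lowest signal well above background on each array of the dimmer group. The method was tested on simulated data. The number of arrays limits the precision.

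The genes, the lists of related genes and markers and the alternatives were chosen with earlier results of these data known. Named are the 10 genes, Akp3, up to 3 genes of each related list with the smallest p in the interaction, and the 3 genes most correlated with each of the 10. Alternatives were normexp, quantile and other percentile scalings, the deposited table, other detection filters, slide and replicate number as blocks, single slides, 1 genotype alone, the mean over probes, and each array left out. Promoters are from RefSeq, GRCm38.p6.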

Additional observations from a re-analysis of the deposited data

Results flagged for a closer look

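In 8 of the 10 genes every array on IIAEK lay on 1 side of the vehicle arrays in the knockout and on the other side in wild type. The same was seen for 486 of 27555 genes tested, or 1.76%. The difference between the IIAEK changes, knockout minus wild type on the log2 scale, was 1.36 for Radx, 1.36 for Prr15, 1.43 for Dennd10 and 1.41 for Grm5. It was -1.53 for Top1mt, -1.46 for Mtss2, -1.27 for Rpusd1 and -1.16 for Polh. The genes were picked for this difference, so it was not tested for them here. Over all genes 0 of 27555 (0%) passed limma's adjusted p of 0.05 in this contrast, and 4189 (15.2%) had an unadjusted p under 0.05. Groups of 3 arrays were too small to look for single outlying arrays.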

How the results depend on the processing

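Over all alternatives 0 of the 10 genes were called for knockout minus wild type, and the change on IIAEK in wild type kept its sign in all 248 recomputed values. In the knockout 4 of 248 values changed sign. These were Radx at -0.09 and Mtss2 at 0.18 with the mean over probes, Aspa at -0.29 within slide 2 and Dusp9 at -0.01 with normexp. With the mean over probes 8 of the 10 genes had changes of opposite sign in the genotypes, and Radx and Mtss2 did not. In the interaction 1 of 238 values changed sign, Mtss2 at 0.10 with the mean over its probes, of which the other is above background on 1 array. Where an alternative only left arrays out, the sign in wild type was fixed in advance, since those arrays did not overlap for any of the 10 genes. The same held in the knockout and the interaction for the 8 genes of opposite, non-overlapping changes. With normexp correction the interaction was 0.58 for Dusp9, -0.27 for Polh, 0.67 for Grm5 and -0.59 for Rpusd1, and the change in wild type was -0.59 for Dusp9, 0.09 for Polh, -0.37 for Grm5 and 0.31 for Rpusd1. With the mean over probes the interaction was 0.44 for Radx and 0.45 for Grm5. Without any gene below background on any array Dusp9 and Polh were not tested. None of the genotype differences that changed sign was called: Polh was -0.0103 with quantile normalization and -0.0218 with the mean over probes, Radx 0.0916 with the mean over probes, Dennd10 -0.0769 within slide 2, and Aspa -0.128 without the 2 arrays rich in pancreatic transcripts. With 1 array left out they ranged from -0.0468 to 0.0741 for Polh, -0.0239 to 0.107 for Dennd10 and -0.0796 to 0.222 for Aspa. Genes called for knockout minus wild type, 1 of all tested, numbered 2 with normexp, 4 with quantile normalization, 4 with genes detected on all arrays, 3 with slide as a block, 0 within slide 1, 113 within slide 2, 2 with the mean over probes and 0 without those 2 arrays. With 1 array left out they numbered 0 to 8, with 0 without WT IIAEK replicate 2, KO vehicle replicate 3 or KO IIAEK replicate 2, 4 without WT vehicle replicate 3 and 8 without WT IIAEK replicate 1 or KO vehicle replicate 1. Genes called in the interaction, 0 as reported, numbered 1 with slide as a block and 4 within slide 2. For IIAEK in wild type 1 was called with slide as a block, 1 within slide 1, 9 within slide 2 and 0 to 1 with an array left out. The gene called with slide as a block in both was Dusp9, by the values that chose it. For IIAEK in the knockout 7 were called within slide 1, 18 within slide 2 and 14 with knockout arrays alone. Fits within a slide rest on 2 residual degrees of freedom. Between groups, 18 pairs of arrays of equal replicate number had r of -0.25 to 0.35 (median 0.07). The 36 pairs of unequal number had r of -0.40 to 0.38 (median -0.005), an overlapping range that does not decide whether the numbers pair the arrays. With the replicate block 0 genes were called for knockout minus wild type. The cause of these changes was not tested. Dusp9, Polh, Grm5 and Rpusd1 had signals near background.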

Other observations

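Of the 486 genes with opposite, non-overlapping changes on IIAEK in the genotypes, 366 were higher in the knockout and lower in wild type and 120 the reverse. With the RefSeq promoters of a gene averaged, the median content of G and C was 61.2% in the first set (164 genes with a promoter). It was 62% in the second (74 genes), beside 59.3% over the 12498 genes tested that had a promoter.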
